A study of Homo sapiens with 2 samples.

Results

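The carcinoembryonic antigen-related cell adhesion molecules CEACAM1, CEACAM3, CEACAM5, CEACAM6, CEACAM7 and CEACAM8 were examined in HT-29 cells with and without knockdown of IFITM1. HT-29 is an established human colorectal adenocarcinoma line. The cells had been transfected for 72 h with a small interfering RNA (siRNA), which directs the breakdown of a matching mRNA. One culture received siIFITM1, aimed at IFITM1, a small membrane protein induced by interferon. The other received siLuc, aimed at the luciferase of the firefly, which is absent from human cells. Transfection was common to both groups, and the labels give neither the siRNA sequences nor an untransfected sample. There was 1 array per siRNA, so no value has a replicate error, no difference could be tested, and differences are described by size only. Members were taken as every probe set annotated to one of the 6 genes, alone or with another CEACAM gene. This gave 16 probe sets of the 54613 that are not controls, 5 for CEACAM1, 3 for CEACAM3, 2 for CEACAM5, 2 for CEACAM6, 3 for CEACAM7 and 1 for CEACAM8. Each of the 16 named a member alone. The 6 genes stand among 19775 genes that had a probe set of their own.

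CEACAM proteins are immunoglobulin superfamily members at the cell surface that bind one another between neighbouring cells through their outermost, variable-like domain. CEACAM1 and CEACAM3 span the membrane and signal through cytoplasmic tails, whereas CEACAM5, CEACAM6, CEACAM7 and CEACAM8 are held by a glycosylphosphatidylinositol (GPI) lipid anchor. In the colon, CEACAM1, CEACAM5, CEACAM6 and CEACAM7 are made by epithelial cells near the luminal surface, and CEACAM5, known as CEA, is the serum marker followed in colorectal cancer. CEACAM3 and CEACAM8 are known as proteins of granulocytes.

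The genes lie on chromosome 19, and their upstream sequences resemble one another. The 250 bases before the annotated start are shown for the 3 genes with brighter probe sets (CEACAM5, CEACAM6 and CEACAM1) and for CEACAM7, whose probe sets were all lower with siIFITM1. They are from RefSeq, build GRCh38.p14, and read 5′ to 3′ on the gene's strand. Capitals mark CACGTG, the E box that upstream stimulatory factors bind, and TGAGAGGGGAGGGGA, the longest run of letters shared by 5 of the 6 members.
CEACAM5, chr19:41708376-41708625, plus strand: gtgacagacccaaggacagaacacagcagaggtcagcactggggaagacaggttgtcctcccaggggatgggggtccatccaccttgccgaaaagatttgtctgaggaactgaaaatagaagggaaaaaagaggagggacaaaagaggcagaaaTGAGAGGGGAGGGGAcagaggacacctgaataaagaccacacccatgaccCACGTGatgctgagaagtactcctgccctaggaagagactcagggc
CEACAM6, chr19:41755280-41755529, plus strand: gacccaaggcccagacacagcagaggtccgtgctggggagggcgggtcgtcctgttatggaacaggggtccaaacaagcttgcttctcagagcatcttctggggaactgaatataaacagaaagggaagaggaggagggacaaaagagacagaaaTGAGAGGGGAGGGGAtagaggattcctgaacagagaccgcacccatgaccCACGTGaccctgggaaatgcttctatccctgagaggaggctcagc
CEACAM7, chr19:41688271-41688520, minus strand: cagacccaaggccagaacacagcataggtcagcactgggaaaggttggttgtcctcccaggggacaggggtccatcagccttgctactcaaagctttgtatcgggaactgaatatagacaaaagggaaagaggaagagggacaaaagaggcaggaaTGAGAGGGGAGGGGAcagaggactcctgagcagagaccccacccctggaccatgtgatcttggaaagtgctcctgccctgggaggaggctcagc
CEACAM1, chr19:42528482-42528731, minus strand: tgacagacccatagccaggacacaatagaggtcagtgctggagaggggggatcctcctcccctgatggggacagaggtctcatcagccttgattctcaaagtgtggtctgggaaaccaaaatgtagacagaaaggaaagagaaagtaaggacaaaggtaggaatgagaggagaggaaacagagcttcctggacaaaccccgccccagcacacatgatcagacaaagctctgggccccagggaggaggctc

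Motifs were counted in windows of 300 bases that also hold the 50 bases after the start, on both strands, and the motifs were chosen after the sequences had been read. CACGTG, a palindrome, was found in CEACAM5 and CEACAM6, starting 46 and 45 bases upstream, and in 7.26% of all 35116 windows. The shared run of 15 bases was found in all members except CEACAM1, starting 90 to 103 bases upstream. It occurred in 8 windows in all, the 5 members, CEACAM21, and the neighbouring pair RABGAP1L and RABGAP1L-DT on chromosome 1. The run was chosen because the members share it, so its count in them is a description. GGGCGG, the GC box, was found in CEACAM1, CEACAM6 and CEACAM8 and in 45.0% of all windows. TATAAA was found in CEACAM6 and in 11.5% of all windows. No motif overlapped another. The windows of CEACAM5 and CEACAM7 were the most alike, with 83.0% identical bases in a global alignment, followed by CEACAM6 and CEACAM7 at 82.3%. Among the 10 pairs without CEACAM8 identity ran down to 70.0%, and the 5 pairs with CEACAM8 lay between 65.7% and 69.7%. These matches describe the letters in the windows and not binding.

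Values are MAS5 signals, linear intensities that were scaled to a common level on both arrays before deposition. The log2 ratio is siIFITM1 over siLuc, so a positive value means more signal with siIFITM1. A probe set passed the filter when its mean signal over both arrays (geometric) reached the median of all probe sets, 57.4. It is called brighter when that mean reached the 75th percentile, 393, and dimmer between the 2 levels. Between probe sets of the same gene outside the family, the log2 ratios had an SD of 0.193 when brighter, 0.496 when dimmer and 1.66 below the filter. This SD describes how probe sets of a gene differ on the same 2 arrays. It measures neither the error of a ratio nor the variation between cultures. Across probe sets, signals were used only to rank brightness and to sum marker lists. They do not compare amounts of RNA between genes, since each probe set has its own probes. Spiked-in hybridisation controls (18 probe sets) ran from -0.13 to 0.05 in log2 ratio around a median of -0.07, and 24 poly-A control probe sets from -0.38 to 0.35 around -0.11. IFITM1 itself had a signal of 237 with siIFITM1, against 640 with siLuc (log2 ratio -1.43).

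The cell type was described with 13 markers of colon epithelium, which do not check the identity of the line. Of these, 10 passed the filter, among them the epithelial adhesion genes EPCAM, CDH1 and CDH17 and the keratin gene KRT20, with a median log2 ratio of 0.02. KRT20 had the highest ratio (0.36), with signals of 22374 with siIFITM1 and 17466 with siLuc, and the galectin gene LGALS4 the lowest (-0.17). The homeobox genes CDX1 and CDX2 and the surface antigen gene GPA33 were below the filter. In bulk RNA, fewer cells of a type and less RNA per cell cannot be told apart.

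Of the 16 CEACAM probe sets, 13 passed the filter, 6 brighter and 7 dimmer. All probe sets of CEACAM1, CEACAM3, CEACAM5 and CEACAM6 passed, 1 of 3 for CEACAM7 and none for CEACAM8. Among the 13, 1 was at least 1.5-fold higher with siIFITM1 and 1 was at least 1.5-fold lower, against a background of 14.3% of all 27307 probe sets past the filter in either direction (5.96% higher and 8.37% lower). Both were dimmer. At the 1.5-fold line 25.0% of all dimmer probe sets were called in either direction, and 3.65% of all brighter ones. None of the 6 brighter CEACAM probe sets was past the line. The median log2 ratio of the 13 was -0.02, the same as the median of all probe sets past the filter, and 6 were above 0 and 7 below. The CEACAM count was therefore close to the background, and IFITM1 knockdown went with no common shift of the family on these arrays.

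**Figure D1:**
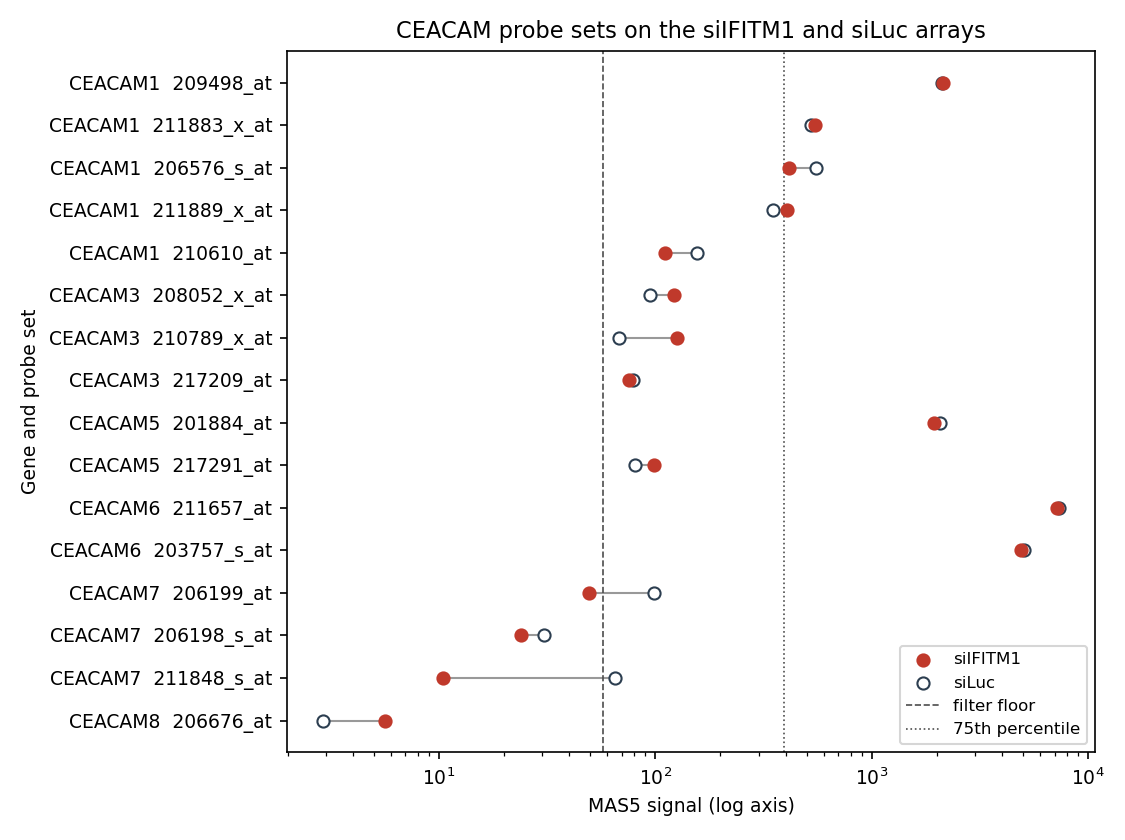
MAS5 signal (log axis) of each of the 16 CEACAM probe sets with siIFITM1 (filled points) and siLuc (open points), 1 array each. Dashed and dotted lines mark the filter floor of 57.4 and the 75th percentile of 393. The points nearly coincide for CEACAM6 and for the brightest probe sets of CEACAM1 and CEACAM5. They lie furthest apart for 206199_at and 211848_s_at of CEACAM7, 210789_x_at of CEACAM3 and 206676_at of CEACAM8. All siIFITM1 signals of CEACAM7 are below the floor.

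The epithelial GPI-anchored members CEACAM5 and CEACAM6 had nearly equal signals on both arrays. CEACAM5 (Entrez gene 1048), the CEA tumour antigen, had a signal of 1932 with siIFITM1 and 2078 with siLuc at the brighter probe set 201884_at. The siIFITM1 signal was 93.0% of the siLuc signal (log2 ratio -0.11). Its dimmer probe set, 217291_at, had 99.1 with siIFITM1 and 80.5 with siLuc, a log2 ratio of 0.30. The probe sets of CEACAM5 thus differed in sign, and each ratio was inside the SD between probe sets of the same gene at its brightness.

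CEACAM6 (Entrez gene 4680), which binds CEACAM8 and other members and is abundant in colorectal carcinoma, had 7222 with siIFITM1 and 7305 with siLuc at 211657_at. The second probe set, 203757_s_at, had 4896 with siIFITM1 and 5053 with siLuc. The log2 ratios were -0.02 and -0.05, so siIFITM1 signals were 98.9% and 96.9% of siLuc signals. Both lay within the range of the hybridisation controls. Over the scalings tried, the CEACAM6 ratios ran from -0.06 to 0.00 and those of CEACAM5 at 201884_at from -0.11 to -0.09.

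CEACAM7 (Entrez gene 1087), a GPI-anchored member of the normal colon surface epithelium, had the lowest ratio of the 6 members. At 206199_at, its only probe set past the filter, the signal was 49.5 with siIFITM1 and 98.6 with siLuc. This is 50.2% of the siLuc signal (log2 ratio -1.00), with the siIFITM1 value under the floor of 57.4. The probe set thus passed the filter through its siLuc signal. With the siIFITM1 value raised to the floor the log2 ratio was -0.78, which is set by the siLuc signal and the floor alone.

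The other CEACAM7 probe sets did not pass the filter. The signals of 211848_s_at were 10.4 with siIFITM1 and 64.9 with siLuc (log2 ratio -2.64). Those of 206198_s_at were 24.0 with siIFITM1 and 30.5 with siLuc (log2 ratio -0.34). All 3 probe sets were lower with siIFITM1. They stayed so under median centring, quantile normalization and a subtracted loess trend, which rescale whole arrays and add no new measurement. A pseudocount of 32 cannot change a sign, and gave -1.19 at 211848_s_at, -0.68 at 206199_at and -0.16 at 206198_s_at. With signals below the floor raised to it, 211848_s_at was at -0.18 and 206198_s_at at 0.00, which is fixed because both of its signals lay below the floor. The -1.00 of 206199_at exceeded the dimmer SD of 0.496, whereas the SD below the filter was 1.66, and 15.0% of all dimmer probe sets were at least 1.5-fold lower. All 3 siIFITM1 signals were below the floor. One array per siRNA cannot separate the CEACAM7 difference from the spread of dim signals.

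CEACAM1 (Entrez gene 634) is the epithelial member with a signalling tail, whose long splice form carries inhibitory tyrosine motifs. It had the most probe sets, and they did not share a direction. The brightest, 209498_at, had 2141 with siIFITM1 and 2122 with siLuc, a log2 ratio of 0.01. The next, 211883_x_at, had 545 with siIFITM1 and 526 with siLuc, a log2 ratio of 0.05. These 2 were nearly equal on both arrays.

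The remaining brighter CEACAM1 probe set, 206576_s_at, was lower, with 417 with siIFITM1 and 552 with siLuc (log2 ratio -0.41). The dimmer 211889_x_at had 408 with siIFITM1 and 349 with siLuc (log2 ratio 0.23). The dimmest, 210610_at, had 111 with siIFITM1 and 156 with siLuc (log2 ratio -0.49). The 5 CEACAM1 ratios had an SD of 0.311 and spanned 0.72. The -0.41 of 206576_s_at was beyond the SD of 0.193 between brighter probe sets of the same gene, while the 2 dimmer probe sets were within theirs of 0.496. Averaging the 5 gave a log2 ratio of -0.12 in place of 0.01. Which splice forms each probe set reads was not analysed here.

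The granulocyte members had dimmer probe sets or signals below the floor. CEACAM3 (Entrez gene 1084), a granulocyte receptor that takes up bacteria, had 3 dimmer probe sets. At 208052_x_at the signal was 122 with siIFITM1 and 94.7 with siLuc (log2 ratio 0.36). At 210789_x_at it was 126 with siIFITM1 and 67.8 with siLuc (log2 ratio 0.90), the only CEACAM probe set past the filter that was at least 1.5-fold higher. Both were higher with siIFITM1, and the 0.90 of 210789_x_at exceeded the dimmer SD of 0.496 given above.

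The third CEACAM3 probe set, 217209_at, was nearly level, with 75.3 with siIFITM1 and 78.7 with siLuc (log2 ratio -0.06). It was the only CEACAM3 probe set whose ID does not end in _x_at, the mark of probes that may match other transcripts. The higher ratios thus rested on probe sets with such probes. Of the 16 CEACAM probe sets, 8 end in _x_at or _s_at, both treated here as sharing probes. Besides those of CEACAM3 they are 206576_s_at, 211883_x_at and 211889_x_at of CEACAM1, 203757_s_at of CEACAM6, and 206198_s_at and 211848_s_at of CEACAM7. Whether they read other CEACAM genes was not analysed. CEACAM8 (Entrez gene 1088), an activation antigen of granulocytes, had 5.64 with siIFITM1 and 2.93 with siLuc at 206676_at, both below the floor of 57.4. Its log2 ratio of 0.94 was within the SD of 1.66 of probe sets below the filter.

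Most other genes of granulocytes were below the filter. Of 16 markers, 2 passed the filter, the lipocalin gene LCN2 (log2 ratio -0.39) and the integrin gene ITGAM (-0.30). LCN2 is also made by colon epithelium. The granule protein genes MPO, ELANE, AZU1 and PRTN3 were below the filter, and none had a signal of 0. Summed over the 16 markers, the signal was 4570 with siIFITM1 and 5843 with siLuc, of which LCN2 gave 4142 with siIFITM1 and 5440 with siLuc. Of 7 measured markers of other blood cells 4 passed, with a median log2 ratio of -0.56, the pan-leukocyte gene PTPRC not among them. The signals of all 7 summed to 878 with siIFITM1 and 1201 with siLuc. Of 8 markers of stroma and endothelium 4 passed, all dimmer, with a median of -0.37. LUM, however, was at 1.54, with 386 with siIFITM1 and 132 with siLuc. The signals of all 8 summed to 909 with siIFITM1 and 775 with siLuc. The part of these markers in the CEACAM3 and CEACAM7 values was not tested.

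**Figure D2:**
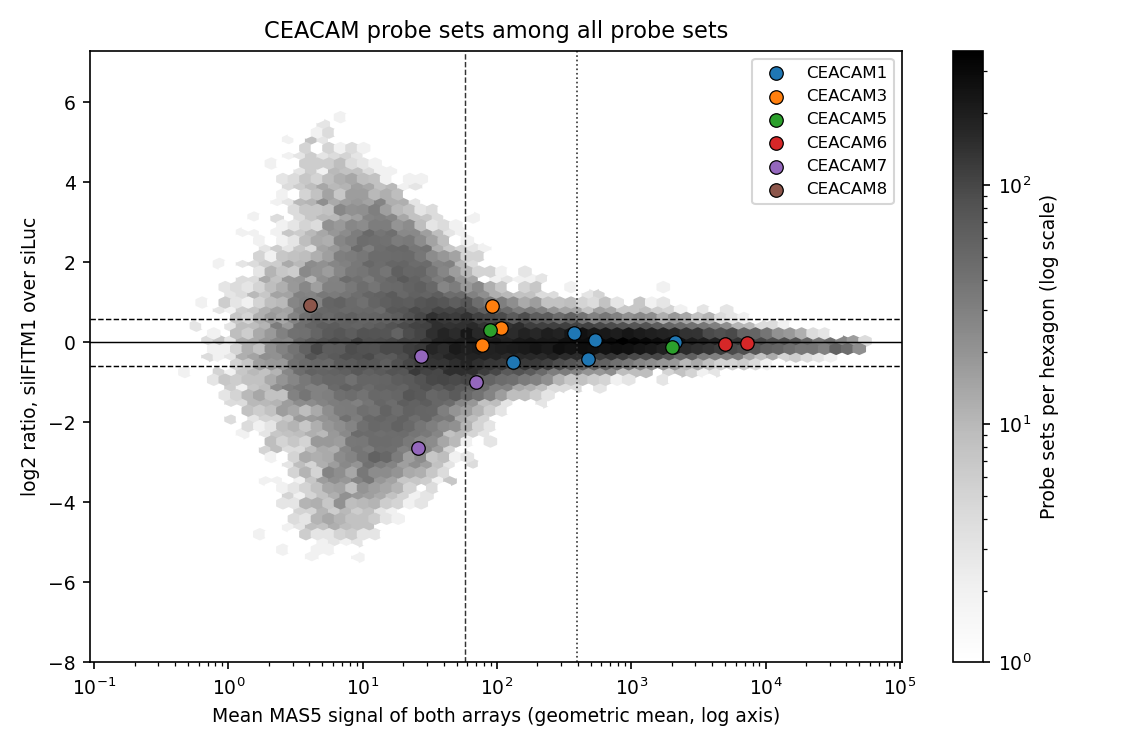
Log2 ratio of siIFITM1 over siLuc against mean MAS5 signal (log axis) for all probe sets (grey hexagons) and the 16 CEACAM probe sets (coloured points). Dashed horizontal lines mark 1.5-fold, and vertical lines the filter floor and the 75th percentile. The spread of all probe sets narrows with signal, and the CEACAM points past the 1.5-fold line are all on the dim side.

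The rest of the family was read mostly below the filter. It comprises further CEACAM genes and the PSG genes, which encode secreted pregnancy-specific glycoproteins of the placenta. Of 16 such genes 12 had a probe set of their own and 5 passed the filter, all dimmer. CEACAM4, a granulocyte member with an activating tail, had 82.7 with siIFITM1 and 48.3 with siLuc (log2 ratio 0.78), the siLuc value below the floor, so that it passed through its siIFITM1 signal. It was the only one of the 5 past the 1.5-fold line, against 11.5% of all 12225 genes past the filter in either direction (4.18% higher and 7.34% lower). Among all dimmer probe sets, 25.0% were past that line in either direction. PSG1 (-0.35), PSG4 (0.20), PSG6 (0.07) and PSG9 (-0.07) were nearer 0. CEACAM19 and CEACAM21 were below the filter, where ratios spread widely in both directions. CEACAM19 had 59.1 with siIFITM1 and 17.6 with siLuc (log2 ratio 1.75). CEACAM21 had 3.72 with siIFITM1 and 57.7 with siLuc (log2 ratio -3.95).

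The genes that build and attach the GPI anchor bear on the 4 anchored members. Of 29 such genes 28 were measured and all 28 passed, 23 of them brighter. The ratio was above 0 for 13 and below 0 for 15, with a median of -0.11. The median of all genes past the filter was -0.02. At its brightest probe set 1 gene was at least 1.5-fold higher and 1 at least 1.5-fold lower, against 4.18% and 7.34% of all genes past the filter. In either direction, 3.65% of all brighter and 25.0% of all dimmer probe sets were past the line. Another probe set of PIGM reached 0.67, against 0.15 at its brightest. PIGZ, a mannosyltransferase, had 141 with siIFITM1 and 90.1 with siLuc (log2 ratio 0.65). PIGH, a subunit of the enzyme of the initial step, had 126 with siIFITM1 and 249 with siLuc (log2 ratio -0.98). Both were dimmer genes. PIGT, a subunit of the transamidase that joins the anchor to the protein, was brighter, with 2005 with siIFITM1 and 2989 with siLuc (log2 ratio -0.58, and -0.55 at its other probe set). PIGQ, another subunit of the initial enzyme, was at -0.55. With brighter genes only, the median of the list was 0.01.

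Of 24 other GPI-anchored proteins 18 passed, 14 of them brighter, with 7 above 0 and 11 below and a median of -0.23. None was past the 1.5-fold line at its brightest probe set. The line was passed by 11.5% of all genes past the filter and by 3.65% of all brighter probe sets. Other probe sets past the line were one of the glypican gene GPC1, at 1.91 against 0.40 at its brightest, and one of MELTF, at -0.78 against -0.40. CD55, a complement inhibitor, had 6729 with siIFITM1 and 4852 with siLuc (log2 ratio 0.47), with 0.27 and 0.38 at its other probe sets. The ephrin gene EFNA4 (-0.56), the protease inhibitor gene RECK (-0.46) and another glypican gene, GPC4 (0.45), had the other large ratios. With no filter the median of the list was -0.02.

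Partners of CEACAM proteins inside the cell had ratios between -0.48 and 0.15 at their brightest probe sets. Of 20 kinases, phosphatases, adaptors and cytoskeletal proteins 15 had a probe set of their own and 14 passed. None was past the 1.5-fold line, against 11.5% of all genes past the filter. Of the 14, however, 13 were brighter, and 3.65% of all brighter probe sets were past the line. Below 0 were 10 of the 14, with a median of -0.06 that became 0.02 without probe sets that share probes. PTPN6, which encodes the phosphatase SHP-1 recruited by the inhibitory motifs of CEACAM1, had 413 with siIFITM1 and 575 with siLuc (log2 ratio -0.48). SRC-family regulator CSK (-0.16), the adaptor gene SHC1 (-0.16) and the beta-catenin gene CTNNB1 (0.15) were next in size. PTPN11, which encodes the related phosphatase SHP-2, was at 0.11. Other probe sets past the filter crossed the 1.5-fold line in 6 of these genes. They reached -1.28 in PTPN11, 1.47 in the insulin receptor gene INSR, 1.12 in the growth factor receptor gene EGFR, 0.90 in CTNNB1, -0.76 in the annexin gene ANXA2 and 0.66 in the kinase gene LYN.

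Of 10 partners outside the cell or at the surface 7 passed, 4 of them brighter, with a median of 0.08 and ratios between -0.09 and 0.15. None was past the 1.5-fold line at its brightest probe set (11.5% of all genes and 3.65% of all brighter probe sets). The 7 included HNRNPM, reported as a receptor for CEA on liver macrophages (0.15, with other probe sets from -0.47 to 0.60). The integrin genes ITGB3 (0.14) and ITGA5 (0.11) and the fibronectin gene FN1 (-0.09) were dimmer, with signals from 64.6 to 112. Brighter besides HNRNPM were the integrin genes ITGB1 (-0.01) and ITGAV (0.08) and the galectin gene LGALS3 (0.08).

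Factors known to bind CEACAM promoters were also read. All 6 passed, with a median of -0.06, and 1 was past the line, against 11.5% of all genes past the filter. USF1, an upstream stimulatory factor that binds the E box, had 128 with siIFITM1 and 286 with siLuc (log2 ratio -1.16) at its only probe set past the filter, which was dimmer. Its partner USF2 was at -0.05, SP1 at 0.12, SP3 at -0.08 (-0.77 and -0.07 at its other probe sets), SOX9 at -0.08 and IRF1 at 0.05. CEACAM5 and CEACAM6, whose windows hold CACGTG, had ratios of -0.11 and -0.02 beside this USF1 value. CEACAM7, whose window holds no CACGTG, was at -1.00. No relation between USF1 and the CEACAM genes was tested.

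**Figure D3:**
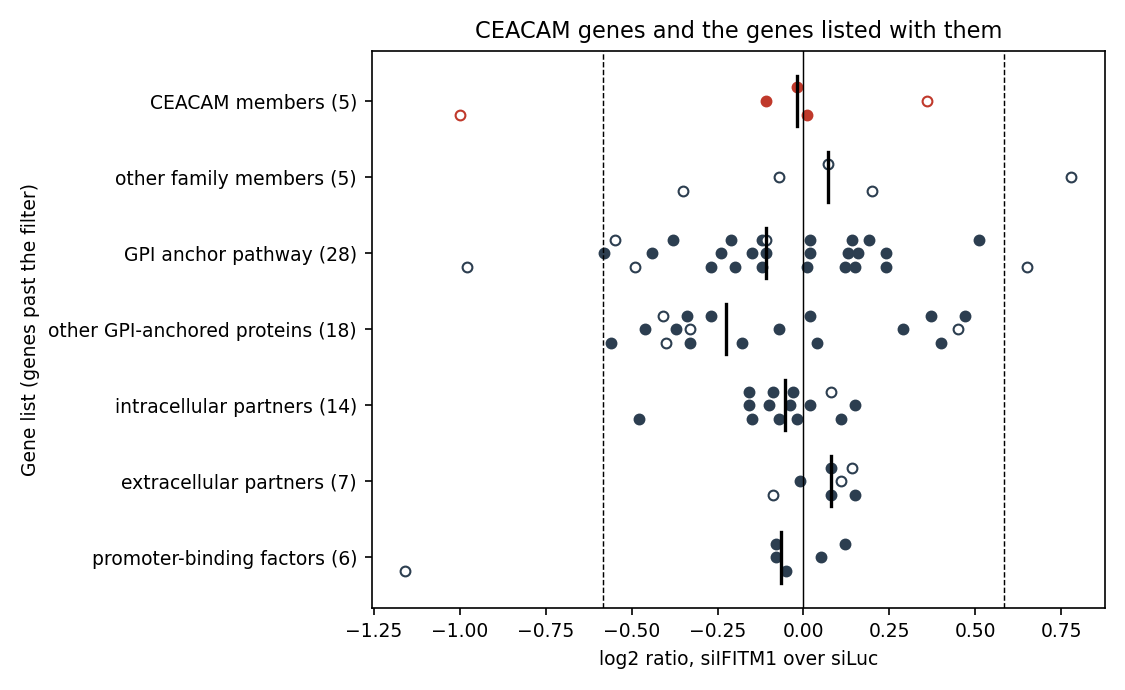
Log2 ratio of siIFITM1 over siLuc for each gene past the filter, at its brightest probe set, by list (number of genes in brackets), with filled points for brighter and open points for dimmer genes. Black bars are medians and dashed lines mark 1.5-fold. The CEACAM genes lie around 0 apart from CEACAM7, and 4 genes of the other lists drawn here lie past the lines, CEACAM4, PIGH, PIGZ and USF1.

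Between CEACAM7 and CEACAM8, the outermost members in the RefSeq order of chromosome 19, lie 37 other genes. Of these 22 had a probe set of their own and 15 passed, 7 above 0 and 8 below, with a median of -0.16. At the brightest probe set of each, 1 was at least 1.5-fold higher and 4 were at least 1.5-fold lower, against 4.18% and 7.34% of all genes past the filter. The lower genes were the cornifelin gene CNFN, with 45.0 with siIFITM1, below the floor, and 116 with siLuc (log2 ratio -1.36), the zinc finger gene ZNF574 (-0.98), the B cell receptor gene CD79A (-0.79) and RABAC1, a regulator of vesicle transport (-0.77). CD79A is also one of the blood cell markers above, and RABAC1, in the list by its position, lay outside the 4 to be named and is named because it completes the count. LIPE, the hormone-sensitive lipase gene, was higher, with 187 with siIFITM1 and 87.6 with siLuc (log2 ratio 1.09), but its other probe set past the filter was at -0.29. RABAC1 and ZNF574 were brighter genes, and CNFN passed the filter through its siLuc signal. Another probe set of ARHGEF1 reached 1.15, against -0.17 at its brightest. The other probe sets of POU2F2 past the filter ran from -1.2 to -0.17, against 0.41 at its brightest. CEACAM5, CEACAM6 and CEACAM3, which follow CEACAM7 in this order, were at -0.11, -0.02 and 0.36, and CEACAM1, near the other end, was at 0.01.

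**Figure D4:**
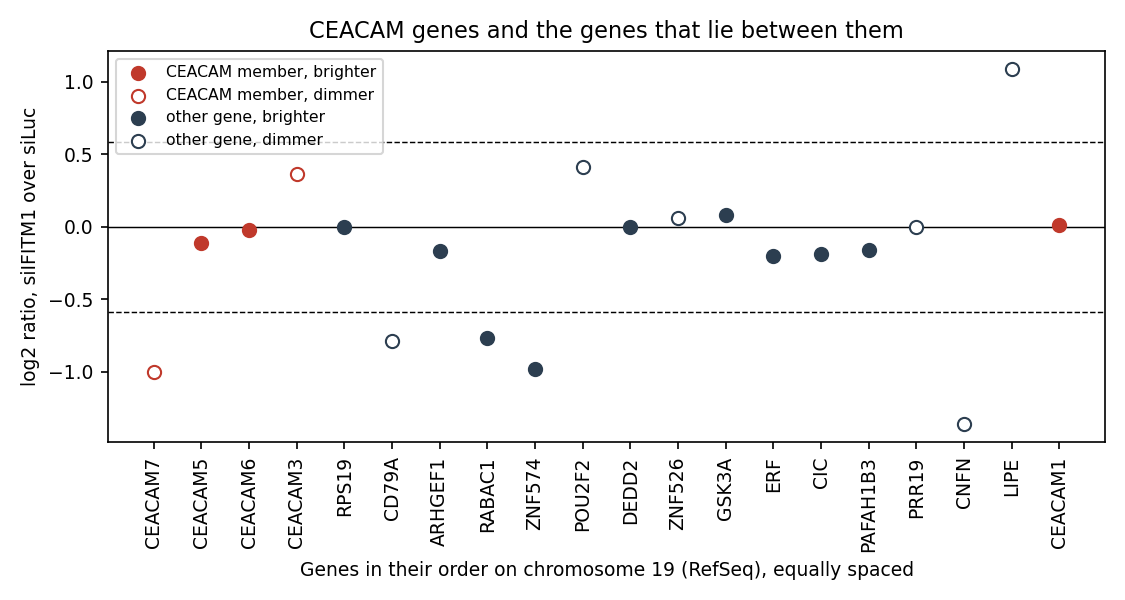
Log2 ratio of siIFITM1 over siLuc at the brightest probe set for the CEACAM genes (red) and the genes between them (dark) that passed the filter. Genes are in their order on chromosome 19 and equally spaced. Filled points are brighter genes, open points dimmer genes, and dashed lines mark 1.5-fold. CEACAM5, CEACAM6 and CEACAM1 lie near 0, while CEACAM7 and 4 of the genes in between lie below the lower line.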

How the data were processed

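Total RNA of 2 HT-29 samples, 1 per siRNA, was amplified to biotin-labelled cRNA and read on 1 array each, per the labels' protocols. The deposited values are intensities on a linear scale. Per the submitters' processing notes MAS5 produced them, and no version is given. The mean signal with 2% of probe sets trimmed at each end was 500.1 on both arrays. Detection calls were not used here.

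The platform's probe table assigned exactly 1 gene to 41091 of the 54613 non-control probe sets, more than 1 to 1801 and no gene to 11721. Entrez identifiers were matched to current symbols in RefSeq (GRCh38.p14), which covered 99.9%. Signals were taken to log2 without further scaling. A gene was represented by its probe set with the highest mean log2 signal. With no replicate, a 1.5-fold line stood in for a test. The members and lists were chosen with earlier results of these data known. All member probe sets were named, with up to 4 genes per list by absolute ratio and others where a role or a count called for them. Promoter windows were aligned globally with biopython 1.88, and identity is identical bases over 300. A run on simulated arrays, with noise taken from these data, checked only the code and not the results. Python 3.11.15, numpy 2.4.6, pandas 2.3.3 and statsmodels 0.14.6 were used. The number of arrays limits the precision.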

Additional observations from a re-analysis of the deposited data

How the results depend on the processing

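The count of 2 of 13 CEACAM probe sets past the line was the same under median centring, quantile normalization and subtraction of a loess trend (span 0.3). Of all probe sets, 14.3%, 14.0% and 14.0% were called there. The count was also 2 of 13 with a pseudocount of 32 (8.8% of all probe sets called) and with signals raised to the floor (12.9%). It was 1 of 7 without probe sets that share probes, where 16.4% of all probe sets were called. It was 4 of 16 with no filter (40.4%), 0 of 6 with the filter at the 75th percentile (3.65%), 0 of 13 at a 2-fold line (3.67%) and 5 of 13 with the line at a log2 ratio of 0.322 (34.8%). The log2 ratio of CEACAM5 was 0.10 as the mean of its probe sets, against -0.11 at the brightest one. Those of the other members moved by less than the SD between probe sets of one gene at their brightness. For CEACAM8, below the filter, that SD was 1.66. CEACAM3 ran from -0.06, without probe sets that share probes, to 0.43, CEACAM7 from -1.33 to -0.68, and CEACAM8 from 0.00 to 1.05. The 0.00 of CEACAM8 is fixed, because both of its signals were raised to the floor. The median log2 ratio of all probe sets past the filter lay between -0.02 and 0.001 under these settings. This range is largely fixed by the settings themselves. Median centring, quantile normalization and the loess trend bring the median to 0 or near it. Changes of filter or line leave the median as it was, since it was always taken at the same floor. No paired analysis was possible because each siRNA had 1 array. Signals near the floor limit CEACAM3, CEACAM7 and CEACAM8.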
